A study of Rattus norvegicus with 4 samples.

Results

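The genes described here encode the enzymes that turn peptide prohormones into hormones, together with the proteins that bind those enzymes: *Pcsk1*, *Pcsk2*, *Furin*, *Pcsk1n*, *Scg5*, *Cpe* and *Pam*. They were chosen by symbol, and each of the 7 is 1 of the 30058 rows of the count table. Peptide hormones and granins are made as long precursors that are cut inside the secretory pathway, mostly in the secretory granules, at pairs of basic residues. *Pcsk1* and *Pcsk2* encode the prohormone convertases of the regulated pathway, and *Furin* encodes the related convertase of the trans-Golgi network, which is found in most cells. *Cpe*, carboxypeptidase E, trims the basic residues left at the new C-terminus, and *Pam*, peptidylglycine alpha-amidating monooxygenase, then amidates peptides that end in glycine. *Scg5* encodes 7B2, a chaperone and inhibitor of the *Pcsk2* product, and *Pcsk1n* encodes proSAAS, an inhibitor of the *Pcsk1* product. In textbook accounts corticotrophs cut POMC to ACTH with the *Pcsk1* product, whereas melanotrophs of the intermediate lobe also use the *Pcsk2* product and go on to alpha-MSH.

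The study profiled single cells from the anterior pituitary of Sprague Dawley rats with droplet RNA sequencing at the 3′ end (10X Genomics). Pituitaries of 4 postpubertal females in diestrus, aged 44 days, formed 1 pool, those of 4 males aged 59 days formed the other, and each pool filled 2 lanes. Sex, pool and age therefore go together and cannot be told apart. The lanes are technical replicates, so p-values measure the spread between lanes or pooled sums and not between animals. The animals were untreated, and no transgene or deletion was involved.

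Promoters come first, because several members of the set were high in the same hormone-producing cells. The promoter table used here, made from RefSeq for the rat assembly GRCr8 (a later one than the authors'), gave entries for 5 of the 7 genes, from 250 bases before the start to 50 bases after it. The search was for TGACG and its reverse complement CGTCA, the 5 bases shared by cAMP response elements, written in capitals below; each sequence is on the gene's own strand, 5′ to 3′, and the last 50 bases follow the start. They are *Scg5* at chr3:121042746-121043045 (minus strand), *Pcsk2* at chr3:151333688-151333987 (plus strand), *Pam* at chr9:105570118-105570417 (plus strand) and *Cpe* at chr16:29796457-29796756 (plus strand).
Scg5: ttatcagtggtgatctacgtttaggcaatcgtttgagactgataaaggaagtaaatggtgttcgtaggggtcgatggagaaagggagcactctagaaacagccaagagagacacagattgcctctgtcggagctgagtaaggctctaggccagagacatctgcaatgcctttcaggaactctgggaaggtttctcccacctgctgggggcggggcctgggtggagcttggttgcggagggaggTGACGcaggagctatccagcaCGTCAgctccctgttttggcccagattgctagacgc
Pcsk2: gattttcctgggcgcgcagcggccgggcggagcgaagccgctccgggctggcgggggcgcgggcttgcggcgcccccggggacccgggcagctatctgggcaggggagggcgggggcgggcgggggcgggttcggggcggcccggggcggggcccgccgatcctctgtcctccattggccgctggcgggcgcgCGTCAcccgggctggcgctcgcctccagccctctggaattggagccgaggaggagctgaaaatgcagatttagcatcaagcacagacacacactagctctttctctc
Pam: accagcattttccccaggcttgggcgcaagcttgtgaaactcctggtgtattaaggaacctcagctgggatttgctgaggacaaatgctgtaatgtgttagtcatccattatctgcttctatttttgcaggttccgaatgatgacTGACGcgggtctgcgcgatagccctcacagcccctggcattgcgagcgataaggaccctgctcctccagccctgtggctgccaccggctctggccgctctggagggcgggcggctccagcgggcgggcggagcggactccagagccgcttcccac
Cpe: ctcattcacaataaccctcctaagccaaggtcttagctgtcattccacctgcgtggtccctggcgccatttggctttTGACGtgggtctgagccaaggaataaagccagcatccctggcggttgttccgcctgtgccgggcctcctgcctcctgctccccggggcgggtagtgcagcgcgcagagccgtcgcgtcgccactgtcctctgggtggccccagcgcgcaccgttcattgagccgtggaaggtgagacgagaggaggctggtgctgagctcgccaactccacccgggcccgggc
At least 1 match stood in 4 of the 5 promoters, and the fifth, that of *Pcsk1n* (chrX:17255356-17255655, minus strand), had none. Among all 33469 promoters of the table, 21.2% held a match. In *Scg5* a match began 7 bases before the start and another stood in the bases after it. The match began 57 bases before the start in *Pcsk2*, 105 in *Pam* and 173 in *Cpe*. The full element TGACGTCA, present in 1.83% of promoters, was in none of the 5. GGGCGG or its reverse complement CCGCCC was in all 5 and in 33.1% of promoters, and TATAAA or TTTATA was in 0 of 5 and in 14.2%. These are matches of letters only, and no assay of binding was part of the data.

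The table held 86742346 UMIs in 7861 cells, and lanes 1 and 2 (female, 1868 and 1861 cells) had 18955509 and 20312999, lanes 3 and 4 (male, 2047 and 2085 cells) 23425817 and 24048021. Any pair of lanes shared between 3 and 7 cell barcodes. After the study's filters, 6858 cells were left in 9 types: 2320 folliculostellate cells (FSC), 795 corticotrophs (C), 239 gonadotrophs (G), 87 thyrotrophs (T), 1890 somatotrophs (S), 485 lactotrophs (L), 549 leukocytes (Le), 132 endothelial cells (EC) and 361 erythrocytes (E). C, G, T, S and L together are the hormone-producing cells (HPC). Beside them stood 60 melanotrophs, 51 pericytes and 59 posterior pituitary cells. Markers that the class rules did not use were found where the names place them: *Tbx19* was at 206 CPM (UMIs of a gene per 1000000 UMIs of a type) in C and 141 in melanotrophs, *Pou1f1* between 237 and 488 in T, S and L, *Nr5a1* at 178 in G and *Sox2* at 205 in FSC. *Sox2* was also at 89.7 CPM in melanotrophs, and at 223 CPM in posterior pituitary cells it was above FSC. Free RNA was plain in the table, since *Gh1* UMIs were found in 100% of E. E and Le therefore serve below as the background for the members other than *Furin*.

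Detection of the members differed by orders of magnitude. Over all cells there were 78966 UMIs of *Scg5*, 68980 of *Cpe*, 22487 of *Pam*, 2243 of *Pcsk1*, 1439 of *Furin*, 1281 of *Pcsk2* and 1 of *Pcsk1n*. The single *Pcsk1n* UMI was in a female S, and the limit that 3 counts of the whole table set for this gene is 0.0346 CPM. No type can therefore be said to have or lack *Pcsk1n* from this table, and it entered none of the tests. Whether its row missed reads at the 3′ end was not tested. The other 6 genes were all measured.

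**Figure D1:**
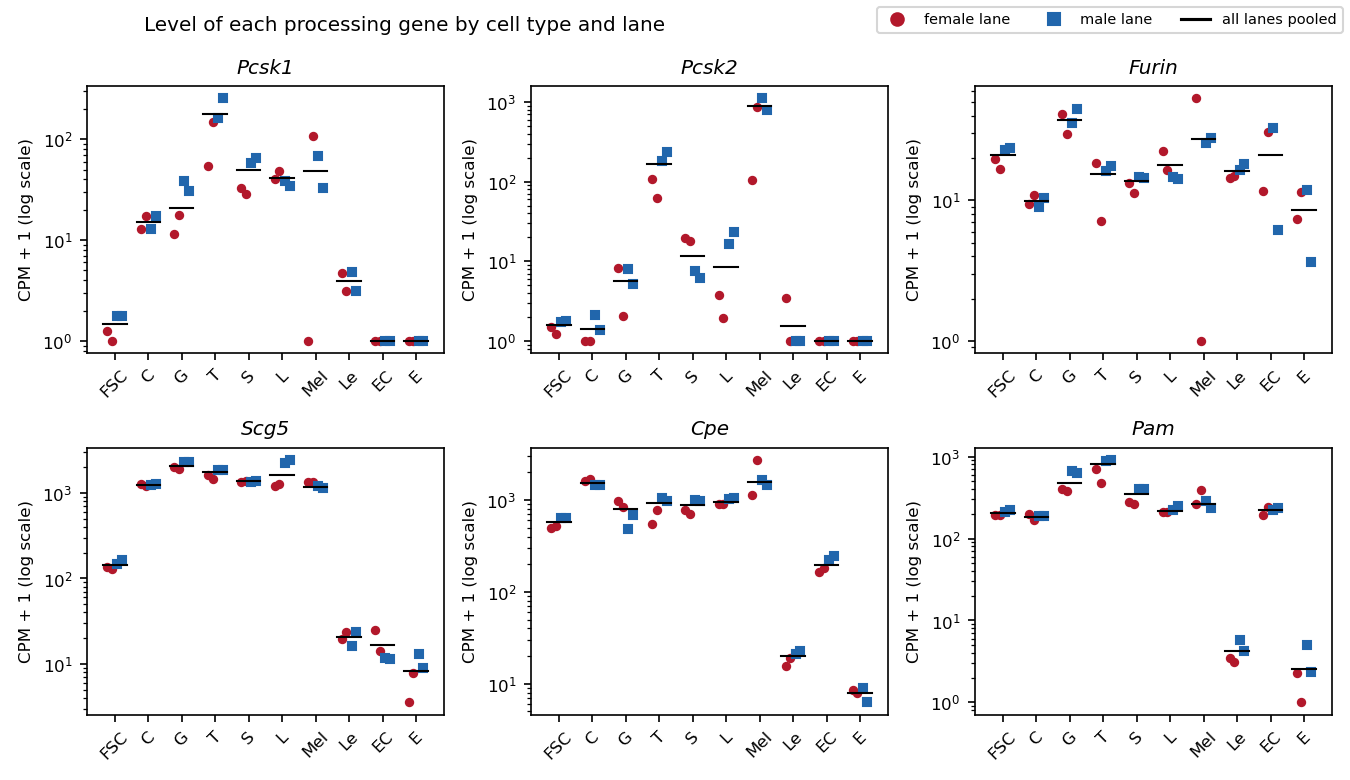
Level of each gene in CPM + 1 (log scale) in FSC, the 5 HPC types, melanotrophs (Mel), Le, EC and E; points are the 4 lanes (circles female, squares male) and the bar is the pooled value. The pooled values of *Pcsk1* and *Pcsk2* do not pass 2.96 CPM in FSC, Le, EC and E, those of *Furin* lie between 7.62 and 36.2 CPM in every type shown, and *Scg5* in FSC (144 CPM) stands between HPC and the non-pituitary types.

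All 3 genes called between HPC and FSC were higher in HPC: *Pcsk1*, *Scg5* and *Pam*. A gene was called when edgeR's quasi-likelihood test, on UMI sums per type and sex, gave a p adjusted over all genes (Benjamini-Hochberg) below 0.001. That was 3 of the 6 members that passed the filter on low counts, and 26.8% of the 13709 genes tested. On the log2 scale *Pcsk1* was higher by 6.62 ± 0.51 (SE; adjusted p = 6.1e-09), *Scg5* by 3.78 ± 0.22 (5.6e-11) and *Pam* by 1.07 ± 0.21 (3.5e-04). *Pam* was not called when libraries were scaled by size alone (0.75, adjusted p = 0.0025). *Pcsk2* stood at 4.06 ± 0.94 (adjusted p = 0.0016) and *Cpe* at 1.06 ± 0.25 (0.0014), both beyond the limit used, and DESeq2 called both. *Furin* had a difference of −0.01 ± 0.21. The rule that set melanotrophs apart used *Pcsk2* and lowered it in C, which is part of the HPC mean. *Pcsk1* and *Pcsk2* passed the filter on low counts only through HPC and melanotrophs, so the count describes these genes and no more.

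FSC, the network-forming cells without hormone granules, held more *Cpe* and *Scg5* mRNA than Le, EC and pericytes, whereas their *Pam* level lay within the interval of EC. *Cpe* was at 579 CPM in FSC, 196 in EC, 79.5 in pericytes and 18.9 in Le, and *Scg5* was at 144, 15.6, 19.2 and 19.7 CPM. *Pam* was at 207 CPM in FSC (exact 95% interval 200.2 to 213, for counting error only) and 220 in EC (194 to 249), with 329 in pericytes and 3.23 in Le. *Cpe* was above its expression threshold in 71.3% of FSC (exact 95% interval 69.4% to 73.2%), *Pam* in 64.0% (62.0% to 65.9%) and *Scg5* in 10.7% (9.50% to 12.1%). The threshold of a gene was set by Otsu's method on scaled log10 counts, as in the study. With each cell thinned to 2000 UMIs, 62.0% of FSC had a *Cpe* UMI, against 31.1% of EC, 17.6% of pericytes, 4.19% of Le and 1.66% of E (median UMIs per cell 6905.5, 7335.5, 6698, 6494 and 8246). For *Scg5* the thinned shares were 25.0%, 0.758%, 3.92%, 4.01% and 1.94% in the same order, and for *Pam* they were 31.2%, 29.5%, 37.3%, 0.911% and 0.554%. All 3 genes were called against the mean of Le and EC, with log2 fold changes of 2.996 ± 0.26 for *Cpe*, 2.71 ± 0.26 for *Pam* and 2.79 ± 0.22 for *Scg5*. They were the 3 of 6 called in that comparison, where 21.7% of all genes were. For *Pam* that mean rests on the low level of Le, and FSC were not tested against EC alone. The remaining members were not called between FSC and the mean of Le and EC. FSC held 9 *Pcsk1* and 11 *Pcsk2* UMIs among 19128725, or 0.470 and 0.575 CPM, and Le were at 2.96 and 0.539 CPM. E had 0 UMIs of either gene, which allows up to 1.17 CPM by the exact interval. A *Pcsk1* or *Pcsk2* UMI in FSC is thus at the background set by E.

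Within FSC the level of *Cpe* was lower in cells with *Krt7*, a keratin gene, and that of *Scg5* and *Pam* differed less. The cells were split by having at least 1 UMI of *Krt7* or of *Gpha2*, a hormone subunit gene of FSC. The values are thus a description with no test, and 84 cells with both markers are in both groups. Depth was not made equal: the 162 FSC with *Krt7* held 2131500 UMIs in all and the 809 with neither marker 5741888. The part of depth and of free RNA in the split was not tested. FSC with a *Gpha2* UMI (1433 cells) had 605 CPM of *Cpe* (exact 95% interval 592 to 619, for counting error only) and those with neither marker (809 cells) 564 (545 to 584). The 162 FSC with *Krt7* had 387 CPM of *Cpe* (361 to 414). Their lanes ran from 302 to 449 CPM, below all lanes of the *Gpha2* group (544 to 654), and overlapped with those of cells with neither marker (404 to 665). *Scg5* was between 138 and 155 CPM and *Pam* between 197 and 223 CPM in these groups. EC and pericytes held *Pam* but little *Scg5*. *Pam* was above threshold in 53.0% of EC (44.2% to 61.8%) and 80.4% of pericytes (66.9% to 90.2%), while *Scg5* was above threshold in 0 of 132 EC (exact interval up to 2.76%) and 0 of 51 pericytes (up to 6.98%).

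**Figure D2:**
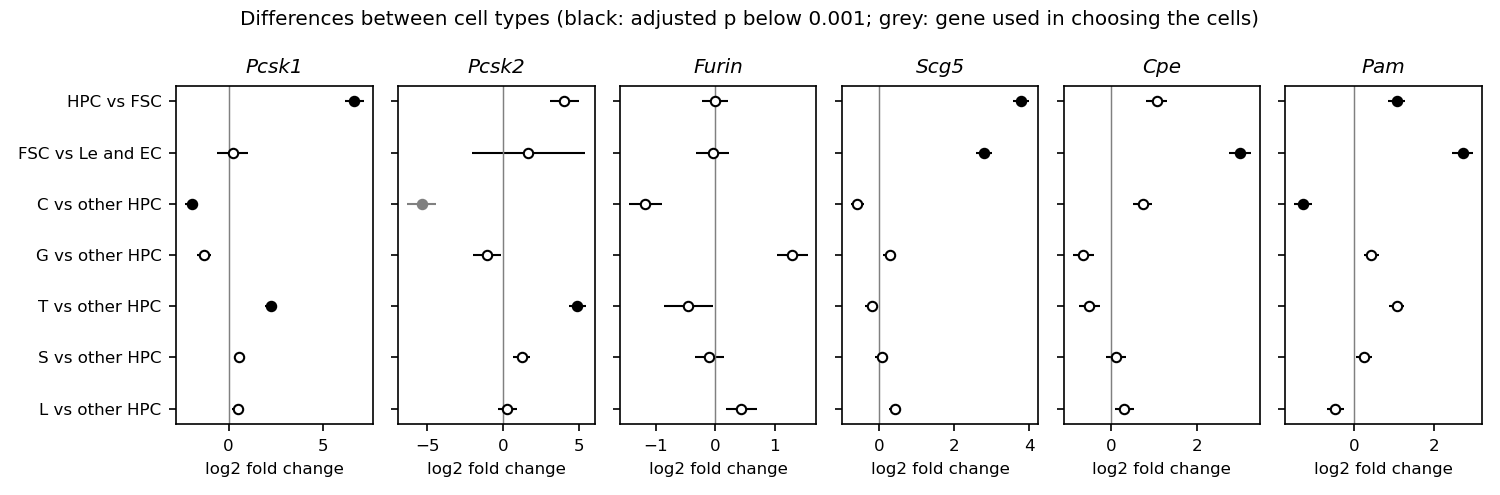
Log2 fold change with its standard error for each gene (panels) in 7 comparisons between cell types (rows); filled black points passed an adjusted p of 0.001, open points did not, and the grey point is *Pcsk2* in C, which the class rule had lowered. *Pcsk1* and *Pcsk2* are filled for T on the positive side and *Pcsk1* and *Pam* for C on the negative side.

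*Pcsk1*, the convertase that starts the cutting of POMC, was highest in T and lowest in C among HPC. In T the 4 lanes had 52.8, 148, 162 and 255 CPM. In S they had 31.8, 27.9, 57.5 and 63.6, and in L 38.9, 47.1, 37.2 and 33.7 CPM. Lanes 2, 3 and 4 of T lay above every lane of S and L, and lane 1 of T lay within the range of S. G had 10.4, 16.9, 37.1 and 29.4 CPM, and C 11.8, 16.5, 12.0 and 16.4. Every lane of C was thus below every lane of S, L and T and overlapped with the female lanes of G. Against the mean of the other HPC types, *Pcsk1* was higher in T by 2.23 ± 0.31 (log2, adjusted p = 2.2e-04) and lower in C by 1.95 (log2 fold change −1.95 ± 0.34, adjusted p = 4.6e-04). A *Pcsk1* level above threshold was found in 52.9% of T (41.9% to 63.7%), 37.0% of S (34.8% to 39.2%), 26.8% of L (22.9% to 30.98%), 17.6% of G (13.0% to 23.0%) and 14.6% of C (12.2% to 17.2%). The share was 1.64% in Le and 0 of 361 in E, which allows up to 1.02% by the exact interval. At 2000 UMIs per cell the order T, S, L, G, C stayed with the sexes pooled, at 19.5%, 8.47%, 7.22%, 3.35% and 2.26%, with 0.911% in Le. It held in male cells, but in female cells it was T, L, S, C, G, at 16.7%, 7.96%, 5.70%, 1.79% and 1.37%.

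C were the HPC type with the lowest *Pam* as well. Of the 5 members counted in C, *Pcsk1* and *Pam* were called, both lower than in the other HPC types (*Pam* −1.28 ± 0.22, adjusted p = 3.3e-04), against 6.53% of all genes. *Pcsk2* was left out of this count because the class rule moved cells with *Pomc* and *Pcsk2* from C to the melanotrophs. *Cpe*, by contrast, stood at 1539 CPM in C and at 801 to 940 in the other HPC types, a difference of 0.73 ± 0.22 that did not pass (adjusted p = 0.024). *Furin* was at −1.18 ± 0.28 (adjusted p = 0.0047) and *Scg5* at −0.58 ± 0.17 (0.024).

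*Pcsk2*, the convertase that carries POMC cutting further, was at its highest in melanotrophs and T. The melanotroph rule asked for at least 2 of *Pomc*, *Pcsk2* and *Pax7* above threshold, so the values of *Pcsk2* in these cells and in C are a description without a test. By this rule there were 60 melanotrophs, 4 female and 56 male, with 881 CPM of *Pcsk2*, while C had 4 *Pcsk2* UMIs in 795 cells (0.428 CPM). The melanotroph lanes gave 105, 855, 1114 and 785 CPM, and the female lanes among them held only 3 and 1 cells. The median melanotroph had 9 *Pcsk2* UMIs and the highest had 36. The 4 female cells had 1, 1, 2 and 24, and the one with 2 also held 1278 *Gh1* UMIs.

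Melanotrophs were also chosen in 2 other ways, of which only the rule by *Pax7* was free of *Pcsk2*. In male cells most still carried *Pcsk2*. With *Pomc* and *Pax7* above threshold, 33 cells qualified, all male, and 32 of them had at least 1 *Pcsk2* UMI (97.0%, exact 95% interval 84.2% to 99.9%), with a pooled level of 995 CPM. Under that rule C held 3.92 CPM, in 11 of 803 cells, and their log2 fold change against the other HPC types was −2.36 and not called (adjusted p = 0.026), in place of −5.38. A cluster of POMC cells held 63 cells, of which 55 had *Pcsk2* (87.3%, 76.5% to 94.4%) and 55 were melanotrophs by the first rule. No member was among the genes used for clustering. Only cells classed as C or melanotrophs by the first rule entered, however, and that rule used *Pcsk2*. The shares with *Pcsk2* in the cluster thus follow in part from that rule. By sex, *Pcsk2* was found in 54 of 57 male cells (94.7%) and 1 of 6 female cells (16.7%, 0.421% to 64.1%) of the cluster. Its *Pcsk2* level was 807 CPM, and *Pax7* was found in 33 of its cells. Among the other clusters of POMC cells *Pax7* was found in no more than 1 cell each.

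Apart from *Pcsk2*, edgeR called no member between melanotrophs and C, both of which make POMC. Of the 5 members counted it called 0, against 0.481% of all genes, and DESeq2 called 0 as well. An unadjusted p below 0.05 was found by edgeR for 2 of them and for 2436 of the 13709 genes tested. These counts neither set the members apart from other genes nor show that the types are alike. The female melanotroph library came from only 4 cells, and none of them passed the rule by *Pax7*. *Pcsk1* was at 46.9 CPM in melanotrophs and 14.2 in C (log2 fold change 1.47 ± 0.54, adjusted p = 0.15, 95% interval 0.40 to 2.54). With the male lanes only, where 56 of the 60 melanotrophs were, it was called (1.73, adjusted p = 4.1e-04). *Furin* was at 26.2 and 8.89 CPM (1.47 ± 0.47, adjusted p = 0.082, interval 0.56 to 2.39). *Cpe* had an interval of −0.68 to 0.50, *Pam* of −0.17 to 0.96 and *Scg5* of −0.61 to 0.25.

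T, the makers of TSH, were the only one of the 9 types with more than 11 CPM of *Pcsk2*. Their lanes had 106, 61.7, 179 and 231 CPM of this convertase, and the highest lane of any other HPC type was lane 4 of L at 22.5 CPM. The log2 fold change of T against the other HPC types was 4.93 ± 0.54 (adjusted p = 1.8e-05). C, in which the rule had lowered *Pcsk2*, is part of that mean. With melanotrophs set by *Pax7* the difference was 4.17 and was called. Of the 6 members tested in T, *Pcsk1* and *Pcsk2* were called, against 0.941% of all genes. *Pam* was at 805 CPM in T and at 184 to 472 in the other HPC types (1.06 ± 0.19, adjusted p = 0.0024), and DESeq2 called it. A *Pcsk2* level above threshold was found in 51.7% of T (40.8% to 62.6%), 9.47% of S (8.19% to 10.9%), 6.39% of L (4.38% to 8.95%) and 4.18% of G (2.02% to 7.56%). Le had 0.364% and E 0 of 361. At 2000 UMIs the shares were 26.4%, 2.70%, 2.06% and 0.418%, with 0.182% in Le.

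The 45 T with *Pcsk2* and the 42 without differed in more than this gene, and the comparison is a description, since the split used a measured gene. Those with *Pcsk2* were 9 female and 36 male cells with a median of 14346 UMIs and 90745 CPM of *Tshb*. Those without were 27 female and 15 male cells with a median of 7302 UMIs and 9500 CPM of *Tshb*. *Pcsk1* was at 244 CPM in the first group and 47.1 in the second, *Pam* at 1022 and 400.0, *Cpe* at 1069 and 635, *Scg5* at 1935 and 1403, and *Furin* at 14.2 and 14.7. Depth, sex and *Tshb* thus moved with *Pcsk2*, and their part was not tested. *Pax7* was 0 in both groups and *Pomc* was at 538 and 409 CPM, near the 440 CPM of S, so markers of melanotrophs were at or near background in T with *Pcsk2*.

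The share of cells that carried both convertases was highest in T and melanotrophs. Among the 87 T, 35 had at least 1 UMI of each (40.2%), 11 had *Pcsk1* alone, 10 had *Pcsk2* alone and 31 had neither. The female T gave 5 of 36 and the male T 30 of 51 with both, at median depths of 6237.5 and 13034 UMIs. When each T was thinned to 2000 UMIs, 10 of 87 (11.5%) still had both. Both were found in 21 of 60 melanotrophs, 90 of 1890 S, 13 of 485 L, 4 of 239 G and 0 of 795 C. *Pcsk2* made up 48.8% of the UMIs of the pair in T, 94.9% in melanotrophs, 18.8% in G, 18.0% in S, 15.6% in L and 2.92% in C. The values of melanotrophs and C follow in part from the class rule, which moved cells with *Pomc* and *Pcsk2* out of C. With melanotrophs set by *Pomc* and *Pax7*, C had 3.92 CPM of *Pcsk2* beside 14.1 of *Pcsk1*, and melanotrophs 995 beside 56.8. Both convertases were then found in 15 of 33 melanotrophs and 0 of 803 C.

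**Figure D3:**
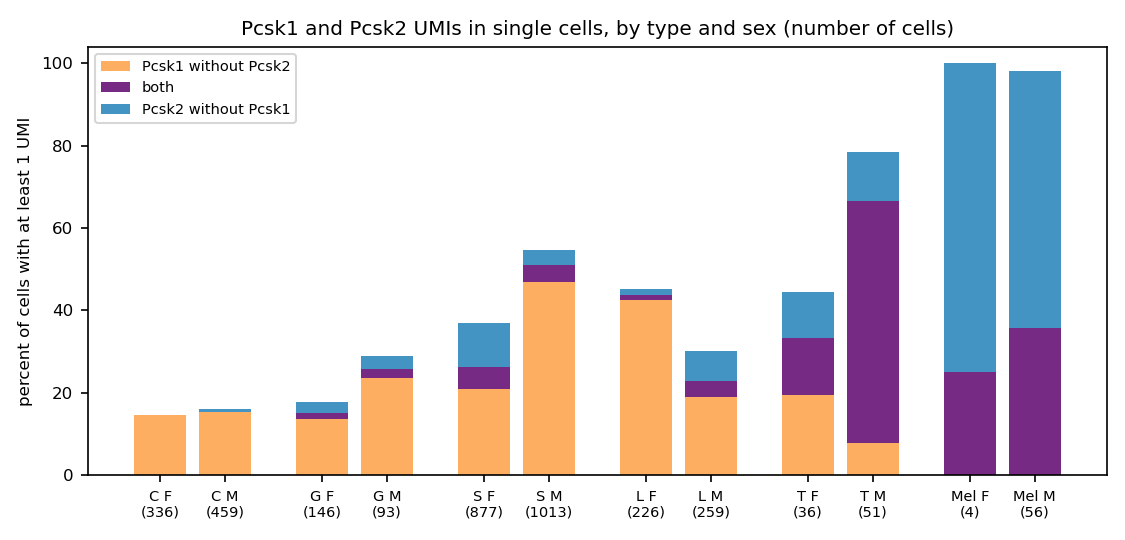
Percent of cells with at least 1 UMI of *Pcsk1* alone (orange), of both convertases (purple) or of *Pcsk2* alone (blue), for female (F) and male (M) cells of each type, with the number of cells under each bar. Cells with both make up 58.8% of male T and 13.9% of female T, and *Pcsk2* was part of the rule for melanotrophs (Mel).

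In S and L, *Pcsk2* was spread thinly over many cells. The 281 *Pcsk2* UMIs of S came from 222 cells and the 47 of L from 35 cells, whereas the 163 of T came from 45 cells. In S, *Tshb* was at 8.79 CPM in female cells with *Pcsk2* and 8.56 in those without, and at 59.8 and 52.3 CPM in males. In L it was lower in the cells with *Pcsk2*, at 8.22 against 17.8 CPM in females, where only 6 cells had *Pcsk2*, and at 35.1 against 62.4 CPM in males. *Pax7* was at 0 in the S and L with *Pcsk2* of both sexes.

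*Furin*, the convertase of most cells, had UMIs in every type, but by CPM no more in C, S and T than in Le. C (8.89 CPM), S (12.7) and T (14.4) were at or below the 15.1 CPM of Le, and E had 7.62. With the hormone genes left out of the total, S (18.2 CPM) and T (17.2) were above Le (15.1), while C (11.2) was below. The shares of cells above threshold were 13.3% in S, 14.9% in T and 9.94% in C, against 10.0% in Le. The place of S and T relative to Le thus depended on the measure, and *Furin* in these types was not tested against Le alone. In Le, *Furin* (15.1 CPM) was near *Cpe* (18.9) and *Scg5* (19.7). Over all cells *Furin* had 1439 UMIs, against 68980 of *Cpe* and 78966 of *Scg5*. Le are therefore no measure of free RNA for *Furin*, and how much of it in any type was free RNA was not tested. A comparison with Le thus does not decide whether C, S and T express *Furin*. Its pooled level ran from 7.62 CPM in E to 36.2 in G. The share of cells above threshold was lowest in E at 6.37% and highest in G at 25.1% (19.7% to 31.1%). Levels in EC (19.99 CPM) and FSC (19.97) lay within the HPC range. No comparison with a mean of other types called *Furin* by edgeR. Among single pairs of the pituitary types and melanotrophs, only C against G was called (−1.97 ± 0.32, lower in C, edgeR adjusted p = 2.8e-04). In G, the lanes had 40.5, 28.5, 34.8 and 44.1 CPM, above all lanes of C, T, S and L, with a log2 fold change of 1.29 ± 0.26 (adjusted p = 0.0019). DESeq2 called it, and so did 3 other settings.

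Among the HPC types and melanotrophs, the order of *Scg5*, the chaperone of the *Pcsk2* product, was not that of *Pcsk2*. It was above threshold in 94.3% to 99.2% of cells in each HPC type, and its level ran from 1245 CPM in C to 2068 in G. Melanotrophs, with the highest *Pcsk2*, had 1188 CPM of *Scg5*, and G, where *Pcsk2* was at 4.62 CPM, had the most by CPM. In the TMM-scaled fit G against L was at −0.11 ± 0.21 (log2, edgeR adjusted p = 0.79). By edgeR no HPC type was called against the others for *Scg5*. E and Le were at 7.30 and 19.7 CPM. *Cpe* was likewise present in most HPC, from 79.1% of G (73.4% to 84.1%) to 96.6% of C (95.1% to 97.8%), at 801 to 1539 CPM, and melanotrophs had 1571 CPM. *Pam* was above threshold in 61.8% of C and 89.7% of T. Of the 30 pairs of the 6 measured genes with an HPC type, 17 had a share of at least 50%, which is all pairs of *Cpe*, *Pam* and *Scg5* and the 2 convertases in T.

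**Figure D4:**
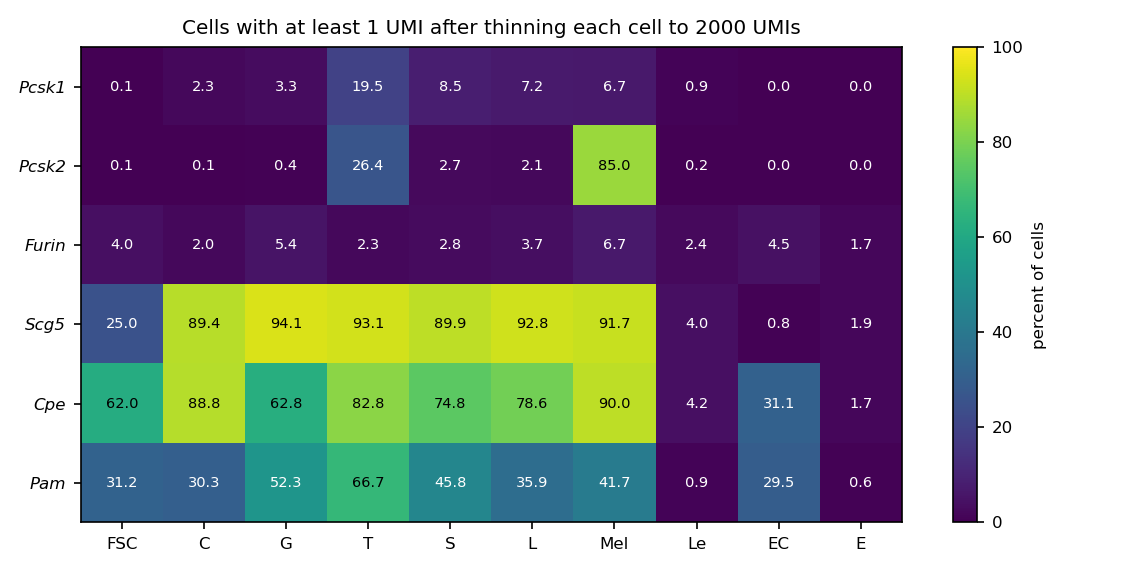
Percent of cells with at least 1 UMI after each cell was thinned to 2000 UMIs, for the 6 measured genes (rows) in each type (columns; Mel, melanotrophs). Shares of *Scg5* are between 89.4% and 94.1% in HPC, those of *Pcsk1* do not pass 19.5% in any type, and those of *Furin* do not pass 6.67%.

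In G, S and L, edgeR called 0 of 6 members against the other HPC types, and few genes of any kind were called. These counts therefore do not set the members apart from other genes. The edgeR test called 0 of 6 in G (4 with an unadjusted p below 0.05, DESeq2 1), where 4.15% of all genes were called. It called 0 of 6 in S (1 below 0.05, DESeq2 0), against 3.99%, and 0 of 6 in L (2 below 0.05, DESeq2 0), against 4.06%. Among all 13709 genes tested, 3384 in G, 3851 in S and 3737 in L had an unadjusted p below 0.05. C, in which the class rule had lowered *Pcsk2*, is part of each of these means. The 1 member below 0.05 in S was *Pcsk2* itself (1.24 ± 0.56, adjusted p = 0.15). The order of types by level was in large part a set of steps that the test could not separate. The order is that of CPM, and some steps ran the other way in the TMM-scaled fit, none of them called. Among these were *Scg5* in T over L (−0.49 ± 0.21) and *Cpe* in T over S (−0.50 ± 0.30). Over FSC, the 5 HPC types and melanotrophs, the orders of the 6 genes gave 34 pairs of neighbours, of which 2 were called. Steps of *Pcsk2* that involve melanotrophs or C were left out. Over all genes 5.64% were called for the same pairs of types. Neighbours were picked from each member's own order, and the share over all genes had no such choice, so these figures are unlike. The 2 called pairs were *Pcsk1* in C over FSC (5.06 ± 0.57, edgeR adjusted p = 1.4e-06) and *Scg5* in melanotrophs over FSC (3.14 ± 0.24, 5.0e-08). *Pcsk1* in T over S (1.35 ± 0.37, adjusted p = 0.033) and *Pcsk2* in T over S (2.95 ± 0.63, 0.0072) did not pass. For *Cpe*, 0 of 6 steps was called.

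Most members called between the female and male pools were called in S and L, on opposite sides for *Pcsk1*, *Pcsk2*, *Cpe* and *Pam*. In S, male lanes had more *Pcsk1*, *Cpe* and *Pam* and less *Pcsk2* than female lanes. In L, male lanes had more *Pcsk2* and *Scg5* and, after scaling by TMM, less *Pcsk1*, *Cpe* and *Pam*. The edgeR test compared 2 female with 2 male lanes in each type, and the values below are CPM scaled by TMM.

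In S, *Pcsk1* was at 32.0 and 28.8 CPM in the female lanes and 56.4 and 62.3 in the male lanes (male minus female 0.97 ± 0.09, adjusted p = 7.6e-10). *Pcsk2* was at 18.7 and 17.7 CPM in the female lanes and 6.31 and 5.11 in the male lanes (−1.68 ± 0.18, adjusted p = 9.0e-09). The pools did not overlap for either gene, and they lay on opposite sides. *Pcsk2* accordingly made up 37.5% of the UMIs of the pair in female S and 8.73% in male S. *Cpe* (0.36 ± 0.04, 9.0e-10) and *Pam* (0.53 ± 0.04, 1.2e-11) were higher in male S. These were the 4 of 6 members called in S, against 10.6% of all genes, and DESeq2 also called 4. The share of S above threshold for *Pcsk1* was 25.4% and 24.3% in the female and 45.7% and 49.1% in the male lanes. Male S were deeper, with a median of 15451 UMIs against 11565. At 2000 UMIs the shares were 5.70% and 10.9% for *Pcsk1*, and 3.65% and 1.88% for *Pcsk2*, in females and males.

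In L, *Pcsk2* was at 3.52 and 1.21 CPM in the female lanes and 12.4 and 17.9 in the male lanes (2.61 ± 0.47, adjusted p = 1.5e-05). Only 8 UMIs lay behind the female value and 39 behind the male value. *Pcsk1* was at 48.7 and 59.1 CPM in the female lanes and 29.8 and 26.8 in the male lanes (−0.92 ± 0.21, adjusted p = 4.0e-04). The pools again did not overlap, with the sides of both genes the reverse of those in S. *Cpe* was at 1125 and 1118 CPM in the female lanes and 816 and 830 in the male lanes (−0.45 ± 0.06, adjusted p = 1.4e-07). *Pam* had a difference of −0.50 ± 0.10 (6.9e-05) and *Scg5* of 0.28 ± 0.06 (1.4e-04). That made 5 of 6 members called in L, against 17.5% of all genes, where DESeq2 called 1. *Pcsk2* passed the filter on low counts only through the male lanes, so its place in this count describes that gene and no more.

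The values in L hang on the scaling. The 7 hormone genes took 31.9% of the UMIs of female L and 18.4% of those of male L, and TMM factors were 0.80 in both female lanes and 1.25 and 1.26 in the male lanes. With library size alone, the middle gene of L moved from 0.02 to 0.66 on the log2 scale. The genes called went from 507 higher and 1005 lower in males to 2383 higher and 328 lower. On that scale *Cpe* (0.20) and *Pam* (0.15) changed sign and were not called, *Pcsk1* was at −0.27 and not called, and *Pcsk2* (3.25) and *Scg5* (0.93) were called. *Pcsk2* and *Pcsk1* can also be set against each other without any scaling: *Pcsk2* made up 6.74% and 2.00% of their UMIs in the female lanes and 29.3% and 40.0% in the male lanes of L. Without 1 of the lanes, *Pcsk1* in L was not called when lane 2, 3 or 4 was left out, *Pcsk2* when lane 2 or 4 was left out, *Scg5* when lane 1 or 4 was left out and *Pam* when lane 3 was left out. *Cpe* remained called in each of these.

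**Figure D5:**
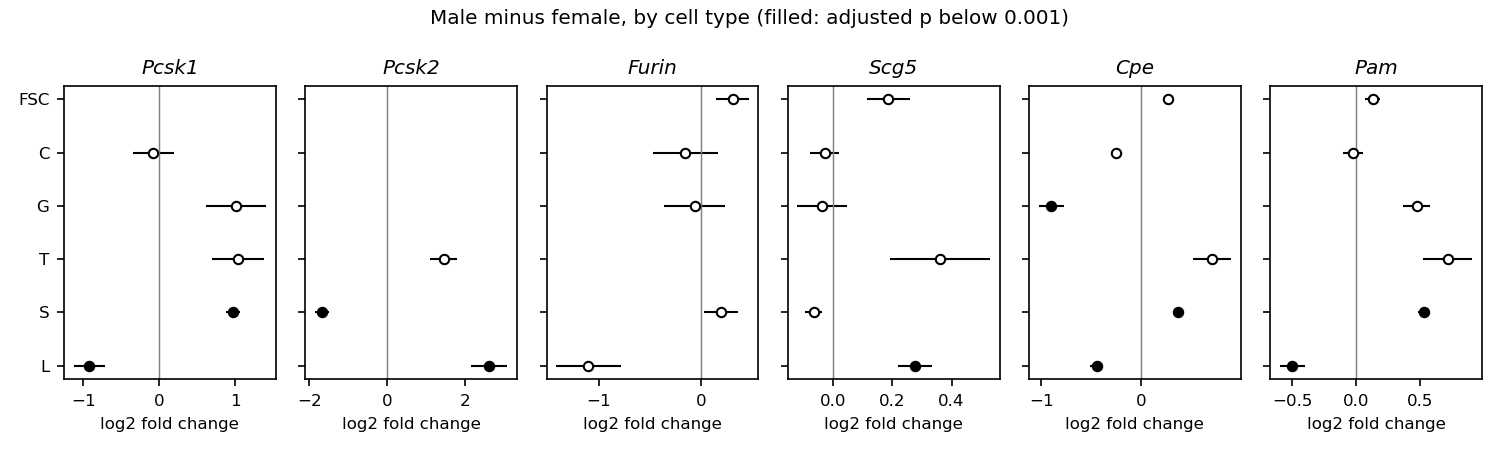
Log2 fold change of male against female lanes with its standard error, for each gene (panels) in 6 pituitary cell types (rows); filled points passed an adjusted p of 0.001, and a missing point was not tested for low counts. *Pcsk1*, *Pcsk2*, *Cpe* and *Pam* are filled in S and L on opposite sides of 0 in this TMM-scaled fit; without TMM *Cpe* and *Pam* in L move to the positive side.

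In the other types 0 or 1 member was called, although the differences were not all smaller. In T, *Cpe* was at 0.70 ± 0.19 and *Pam* at 0.72 ± 0.19, larger in size than in S and L, while *Pcsk2* was smaller in size. The median signed difference over the members tested was 0.72 in T, against 0.28 in S and −0.47 in L. Signs were mixed in S and L, so these medians do not compare sizes. In G, *Cpe* was lower in males (1022 and 952 CPM in the female, 445 and 611 in the male lanes, −0.90 ± 0.13, adjusted p = 2.2e-04), the 1 member called of 5 tested, against 4.07% of all genes. *Pam* in G was at 0.48 ± 0.11 (adjusted p = 0.0068) and was called with library size alone (0.74). In FSC edgeR called 0 of 4 (3 with an unadjusted p below 0.05, DESeq2 0), against 3.32%, and *Cpe* was at 0.26 ± 0.05 (adjusted p = 0.0011), called when lane 2 was left out. In C it called 0 of 5 (1 below 0.05, DESeq2 0), against 0.583%, and *Cpe* was at −0.25 ± 0.05 (0.0030), called when lane 1 was left out. In T it called 0 of 5, although all 5 had an unadjusted p below 0.05 (DESeq2 0), against 1.35%. Over all genes, an unadjusted p below 0.05 was found for 3330 of 12928 in FSC and 1046 of 9946 in C. In T it was found for 500 of 3271 genes. *Pcsk2* in T was at 1.44 ± 0.34 (adjusted p = 0.0082) and *Pcsk1* at 1.04 ± 0.34 (0.096). The female lanes held only 17 and 19 T, and 1 cell gave 36.7% of the female *Pcsk1* UMIs.

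Whether the difference between the pools itself varied by type was tested in 1 fit over FSC and the 5 HPC types. *Pcsk1*, *Pcsk2*, *Cpe*, *Pam* and *Scg5* were called for this interaction, against 11.5% of all genes, and *Furin* was not (adjusted p = 0.019). The same 5 were called with library size alone and without the 7 hormone genes. C, in which the class rule had lowered *Pcsk2*, was part of this fit. The *Pcsk2* threshold of that rule was set per sex, at a log10 value of 0.164 in females and 0.352 in males. The part of the rule in the *Pcsk2* result was not tested.

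Other processing genes were called in 3 of 19 cases between HPC and FSC, 15.8% against 26.8% of all genes. Of 22 other processing genes listed (convertases of the same family, carboxypeptidases, cathepsins, glutaminyl cyclases, sulfotransferases and copper carriers), 20 were in the table and 19 were tested. *Qpctl*, a glutaminyl cyclase, was higher in HPC (1.34), and *Ctsh*, cathepsin H (−4.76), and *Prcp*, a lysosomal carboxypeptidase (−2.99), were lower. The median of the list was 0.01, against −0.08 for all genes. Within HPC, calls fell on 1 of the 19 genes in each of C, T and S (5.26%, against 6.53%, 0.941% and 3.99% of all genes) and on 2 in each of G and L (10.5%, against 4.15% and 4.06%). *Pcsk5* (2.81) and *Prcp* (2.43) were higher in G, *Ctsh* (3.20) in T, *Pcsk6* in S (4.09) and L (3.41), and *Ctsl*, cathepsin L, in L (1.44), while *Ctsh* was lower in C (−2.82). *Pcsk5* and *Pcsk6* encode further convertases of the furin family. In L, *Cpz* (−6.87), *Pcsk6* (−2.05) and *Ctsl* (−0.42) were lower and *Ctsh* (1.65) was higher in males, 25.0% of the 16 tested against 17.5% of all genes.

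The precursors that these enzymes cut were called in 10 of 16 cases between HPC and FSC (62.5%, against 26.8% of all genes), among 20 listed. Of these, 9 were higher in HPC while *Penk*, proenkephalin, was lower (−6.74), and the median of the 16 was 3.95. *Chgb*, *Scg2* and *Pomc* in this list were used to define the classes and stayed in the count. *Nmu*, *Nmb*, *Cartpt*, *Vgf* and *Calca* were between 0.575 and 4.03 CPM in FSC. They passed the filter on low counts only through other types, so the count describes these genes and no more. The highest precursor was *Pomc* in C and melanotrophs (201580 and 241960 CPM), *Scg2* in G (9434 CPM), and *Chgb* in T (9273 CPM), L (3645) and S (858). FSC held 1666 CPM of *Penk*, beside 579 CPM of *Cpe*, 207 of *Pam* and *Pcsk1* and *Pcsk2* at background. In S, 11 of 15 precursors tested were called between the pools, all higher in males (73.3%, against 10.6% of all genes).

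The likeness of patterns is given as Pearson's r of log2(CPM + 1) over 10 groups, the 9 types and melanotrophs, among 11854 genes. These groups share libraries and depth, so the values describe and do not test. The class rule used *Pcsk2* to part melanotrophs from C, and both are among the groups. The values of *Pcsk2* thus follow in part from that rule. *Cpe* and *Pam* were the pair of members most alike (0.931), followed by *Cpe* with *Scg5* (0.888) and *Pcsk1* with *Scg5* (0.882). *Pcsk1* with *Pcsk2* had 0.779 and *Pcsk2* with *Scg5* 0.610. *Furin* had between 0.168 and 0.497 with the other members. The genes nearest to *Pcsk1* were *Lin7b* (0.981), *Tceal6* (0.966) and *Serpini1* (0.958), and those nearest to *Pcsk2* were *Cpne7* (0.929), *Fam159b* and *Myh6* (both 0.915). For *Cpe* they were *Apbb1* (0.992), *Mapk8ip1* (0.992) and *Prnp* (0.991), and for *Pam* they were *Epb41l1* (0.983), *Triqk* (0.982) and *Rph3al* (0.975). For *Scg5* they were *Tmem198* (0.996), *Bex2* (0.995) and LOC103694121 (0.989), while the nearest to *Furin*, RGD1311084, reached 0.897.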

How the data were processed

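The deposited data are 1 table of UMI counts per gene, unnormalized whole numbers, that the authors made from 10X Genomics v2 3′ libraries with Cell Ranger 2.1 (submitters' processing notes), using an NCBI rat annotation with genes extended at their 3′ ends and lanes combined after equalizing mapped reads. The table includes cells left out later by the study. Barcode suffixes give the lane, and lanes were matched to a sex by the numbers of cells the study gives. Columns of samples from outside the series numbered 0.

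Cells were classified by the marker genes and filters of the study's methods (Otsu thresholds with 256 bins, the 30 nearest neighbours for unclassified cells, mitochondrial share over the mean by 2 SD, lowest and highest 1.5% in depth, doublets by 30% synthetic doublets at adjusted p 0.01 over 10 repeats). Doublet calls numbered 188 and ambiguous cells 190, and 222 cells were assigned by their neighbours. UMIs were summed per type and sex (between types, sex as a term, E left out since globin fills it) or per type and lane (between sexes), and tested with edgeR 4.0.16 (R 4.3.3; quasi-likelihood, TMM, minimum count 10, Benjamini-Hochberg over all genes tested). The study tested cells; sums replaced them because cells are not replicates, and the limit of 0.001 was kept. All p-values are 2-sided. In data simulated for T against the other HPC types (10725 genes) the test recovered 42.9% of 2-fold and 88.1% of 4-fold changes, for the sexes in S (12531 genes) 26.4% and 100%, and in L (8788 genes) 16.5% and 90.8%, with 0 calls among unchanged genes. Every simulated library had the same base proportions of genes, and only genes with enough expected UMIs in T were changed. All genes were drawn with 1 fixed spread between libraries, which was not taken from the data. These rates thus do not cover pools of unlike composition, such as those of L, or genes of another spread. They do not give the power of the tests on the real data.

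Intervals of shares and CPM are exact 95% intervals (Clopper-Pearson or Poisson) and, like the limit of 3 counts, cover counting error only. Clusters of POMC cells were made with scanpy 1.11.5 under Python 3.11.15. Alternatives were DESeq2 1.42.0, library size alone, no filter, no hormone genes, other cell filters, sums per lane, E kept, 2 other melanotroph rules and each lane left out. Named were the 7 members throughout, called genes of a processing list, the highest precursor per type and the 3 genes most like each member. The other processing genes called within HPC and between the sexes were named after their values were seen. Members and lists were chosen with earlier results of these data known.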

Additional observations from a re-analysis of the deposited data

Results flagged for a closer look

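For 5 of the 6 measured members, the difference between the male and the female pool was not the same in every pituitary cell type. The test was edgeR's type by sex interaction over FSC, C, G, T, S and L, with Benjamini-Hochberg adjustment over all genes. The adjusted p was 1.7e-12 for *Cpe*, 5.8e-10 for *Pam*, 7.7e-10 for *Pcsk2*, 1.2e-06 for *Pcsk1* and 1.8e-04 for *Scg5*. The class rule had lowered *Pcsk2* in C, with a threshold set per sex, and its part in the *Pcsk2* value was not tested. *Cpe* was higher in male S and lower in male G, and the TMM-scaled value in L was lower as well. *Pcsk2* was lower in male S and higher in male L, and *Pcsk1* had the opposite sides in both. *Scg5* was called in L alone among the single types. The hormone share of UMIs and the median depth moved with sex in L, from 31.9% and 18316 UMIs in females to 18.4% and 7265 UMIs in males, and their part in these values was not tested. Sex, pool and age cannot be told apart.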

How the results depend on the processing

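For female against male lanes, no paired analysis was possible because the lanes in the table carry no replicate number. Cell types share lanes and could be paired within them, but types were compared with sex as the term and pairing by lane was not tested. Of 632 values under an alternative, 530 kept their direction and side of the limit (or stayed within the spread or 1.5 times the count), 18 lost a call, 36 gained one, 46 moved otherwise and 2 changed sign. The 20 called member differences remained called in 190 of 210 alternative values, and 14 of them in every alternative run. The changes of sign were *Cpe* (0.20) and *Pam* (0.15) between the sexes in L with library size alone.

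Counts of members called moved as follows. Between HPC and FSC, 3 became 5 with DESeq2, without the filter on low counts and with sums per lane. In C against the other HPC types 2 became 5 with sums per lane. In G 0 became 1 with DESeq2, library size and sums per lane, and 2 without the filter. In S 0 became 1 without the filter, in L 0 became 1 with sums per lane, and between melanotrophs and C 0 became 1 with male lanes only. Between the sexes, FSC went from 0 to 1 with library size and without the hormone genes and from 0 to 1 as lanes were left out. C went from 0 to 1 without the filter and ranged from 0 to 1 as lanes were left out. G went from 1 to 2 with library size. L went from 5 to 1 with DESeq2, 2 with library size and 1 without the filter, and ranged from 2 to 4 as lanes were left out. Called neighbours went from 2 to 6 without the filter and with sums per lane, alternatives chosen after seeing the data. Both convertases in 1 T went from 40.2% to 11.5% at 2000 UMIs. The causes were not tested.

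Counts over all genes moved too. Calls between melanotrophs and C went from 66 to 209 with DESeq2, 478 without the filter, 474 with sums per lane and 860 with male lanes only, those in T from 129 to 329, 464 and 465 under the first 3, and those between the sexes from 1268 to 549 in S and from 1512 to 689 in L with DESeq2. With 1 lane left out, calls between melanotrophs and C were 159 (lane 1), 42 (lane 3) and 28 (lane 4). Between the sexes, calls in S fell from 1268 to 502 (lane 1) and 560 (lane 2), in FSC from 429 to 231 (lane 3) and 228 (lane 4) and in T from 44 to 15 (lane 1) and 23 (lane 4), and in G they rose from 281 to 463 (lane 1), so the shares of all genes given beside the members move with them. Library size alone turned the higher and lower calls of HPC against FSC from 1299 and 2380 to 781 and 2893, those of S from 395 and 152 to 222 and 210, those of L from 439 and 117 to 282 and 157, and those between the sexes in G from 122 and 159 to 310 and 151. It moved the median of all genes between HPC and FSC from −0.08 to −0.39 on the log2 scale. Few cells limit T and melanotrophs, and few UMIs limit *Pcsk2* in G (13) and L (47) and *Furin* in T (14) and melanotrophs (19).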

Other observations

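A few values lie outside the comparisons above. Posterior pituitary cells, 59 in all and 55 of them male, had 262 CPM of *Cpe*, 90.2 of *Pam* and 48.1 of *Scg5*, and 1 of the 59 was above threshold for *Pcsk2*. Macrophages, the 494 Le with at least 2 of *C1qa*, *C1qb* and *C1qc*, had 19.2 CPM of *Cpe*, 19.5 of *Scg5* and 15.6 of *Furin*, and the 55 other Le had 16.1, 21.4 and 10.7. *Pdyn*, prodynorphin, was the 1 of 16 precursors called between melanotrophs and C (3.44, higher in melanotrophs), 6.25% against 0.481% of all genes. It was also higher in G than in the other HPC types (5.46), and both were named after their values were seen.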
